A study of Rattus norvegicus with 11 samples.

Results

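The lower part of glycolysis and the handling of its end product, lactate, were described in rat WBCs through 10 genes. They are Aldoa, Tpi1 and its near-identical copy LOC100911515, Pgk1, Pgam1, Eno1, Pkm, Ldha, Ldhb and Slc16a3, taken by name from the 32623 genes of the table, with Tpi1 and its copy read both singly and as a sum. The study followed male Wistar rats, 7 weeks old, with collagen-induced arthritis (CIA), a joint disease raised by injecting type II collagen in incomplete Freund's adjuvant with a second injection on day 7. The same 4 CIA rats gave blood around day 8, when they had Nampt++ status, and again around day 14, when they had Nampt+ status, with a spread of about 2 days. Blood of 3 normal healthy rats served as reference, and the authors set the status of each CIA sample by their own PCR of Nampt. Red blood cells were lysed and RNA of the remaining WBCs was sequenced, so each sample is a mixture of blood cells and no cell type was sorted.

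Glycolysis splits a sugar phosphate of glucose into triose phosphates with aldolase, and triosephosphate isomerase, the product of Tpi1, turns one triose phosphate into the other so that all of the carbon can go on. Phosphoglycerate kinase (Pgk1), phosphoglycerate mutase (Pgam1), enolase (Eno1) and pyruvate kinase (Pkm) carry it to pyruvate and yield ATP. Lactate dehydrogenase, a tetramer of the subunits coded by Ldha and Ldhb, converts pyruvate and lactate into each other, and the monocarboxylate transporter MCT4, coded by Slc16a3, exports lactate. Neutrophils and activated monocytes are known to draw much of their energy from this route.

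Total counts per sample lay between 65340027 and 85819418. Red cell RNA was still present after lysis, as 11 haemoglobin genes held between 6.84% and 37.3% of all counts at Nampt++ status, between 14.8% and 42.8% at Nampt+ status and between 16.2% and 30.9% in normal rats. Of 11 neutrophil markers, such as S100a8 and Csf3r, all 11 were in the table, and their summed FPKM ran from 2925 to 40231 in Nampt++, from 3733 to 15596 in Nampt+ and from 2095 to 14082 in normal samples. FPKM is the number of fragments of a gene scaled by the length of the gene and by the total of the sample. In such mixed samples fewer cells of a type and less RNA per cell cannot be told apart. The extraction text deposited with the samples speaks of retinas, but the retina markers Crx, Nrl and Rcvrn were at 0 in all 11 samples and the 6 retina markers together reached at most 0.219 FPKM.

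The sequences that bear on these genes are the primers with which the study measured Tpi1 and one of the further copies described below, since near-identical genes can share a primer site, and the upstream stretches of Tpi1, Ldha and Pgam1. The primers, 5′ to 3′, are given in the study under the names Tpil and Loc100364062.
Tpil-F: gtcctggcctatgaaccagt
Tpil-R: tacttcctgggcctgttga
Loc100364062-F: tacctcccaagggctcctat
Loc100364062-R: ggcatccttacacagcacag
The forward Tpil primer has 20 bases and the reverse 19, and they were not set against the sequence of LOC100911515 here. HIF-1 is known to bind the hypoxia response element in promoters of glycolytic genes, whose core is A or G followed by CGTG. Only the form ACGTG was searched, on both strands of the 250 bases before the transcription start in RefSeq's GRCr8 table. The form GCGTG was not part of that search, and its share among the windows of all genes was not counted. ACGTG overlaps the E-box CACGTG. Windows were matched for 8 of the 10 genes, 11 windows in all, and 3 of these held a match. Among 33469 windows of all genes, 16.6% held ACGTG and 5.59% held CACGTG. Matches stand in capitals below.
Tpi1, GRCr8 chr4:159305089-159305338, minus strand: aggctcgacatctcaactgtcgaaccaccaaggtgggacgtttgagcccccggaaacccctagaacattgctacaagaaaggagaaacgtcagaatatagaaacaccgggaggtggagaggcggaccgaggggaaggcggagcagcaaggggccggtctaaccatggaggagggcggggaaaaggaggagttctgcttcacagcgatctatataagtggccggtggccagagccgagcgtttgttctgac
Ldha, GRCr8 chr1:106507842-106508091, plus strand: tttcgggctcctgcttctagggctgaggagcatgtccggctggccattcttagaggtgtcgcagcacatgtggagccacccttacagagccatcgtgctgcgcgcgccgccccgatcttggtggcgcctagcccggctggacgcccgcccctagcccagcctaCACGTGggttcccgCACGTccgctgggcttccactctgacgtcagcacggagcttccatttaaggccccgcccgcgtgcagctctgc
Pgam1, GRCr8 chr1:250672902-250673151, plus strand: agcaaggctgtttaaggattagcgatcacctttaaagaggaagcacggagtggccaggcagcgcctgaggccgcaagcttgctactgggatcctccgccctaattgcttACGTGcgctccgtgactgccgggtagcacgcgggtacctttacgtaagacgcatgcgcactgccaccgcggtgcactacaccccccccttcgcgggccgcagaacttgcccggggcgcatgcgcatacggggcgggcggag
The Ldha window held 3 matches, a pair that shares the E-box with first bases 87 and 86 bases before the start and one 73 bases before it. The Pgam1 window held 1 match, 141 bases before the start, and 1 of the 3 Aldoa windows held 1, 192 bases before. The letters ACGTG were not in the windows of Tpi1, Eno1, Pkm, Ldhb and Slc16a3. Of these, the windows of Eno1 and Ldhb hold GCGTG or its reverse complement CACGC, and those of Tpi1, Pkm and Slc16a3 hold neither. Nothing about the binding of a factor follows from that.

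Per length of gene, the members spanned a wide range of levels over the 11 samples. Pkm had the highest mean FPKM, 469.9, and ranked 194 among all genes. Slc16a3 (312.2), Aldoa (304.5) and Ldha (299.2) followed and did not stand apart from each other, as Slc16a3 was above Aldoa in only 5 of 11 samples and Aldoa above Ldha in 7 of 11. Eno1 (183.3), Pgk1 (152.8) and Pgam1 (101.8) came next, each above its follower in 10 or 11 of 11 samples. LOC100911515 had 38.7, Ldhb 29.0 and Tpi1 20.9, and the order among these last 3 changed between samples. Tpi1 read singly varied most, with a highest sample 17.6 times its lowest, followed by Ldhb with 15.9 times, whereas Ldha varied 2.31 times. Read singly, Tpi1 ran from 3.33 to 58.5 FPKM and LOC100911515 from 18.0 to 83.0. The sum of the copies ran from 29.5 to 141.5 FPKM, both ends at Nampt++ status. The low rank and wide range of Tpi1 thus hold for the single row and depend on how reads fall on the copies.

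**Figure D1:**
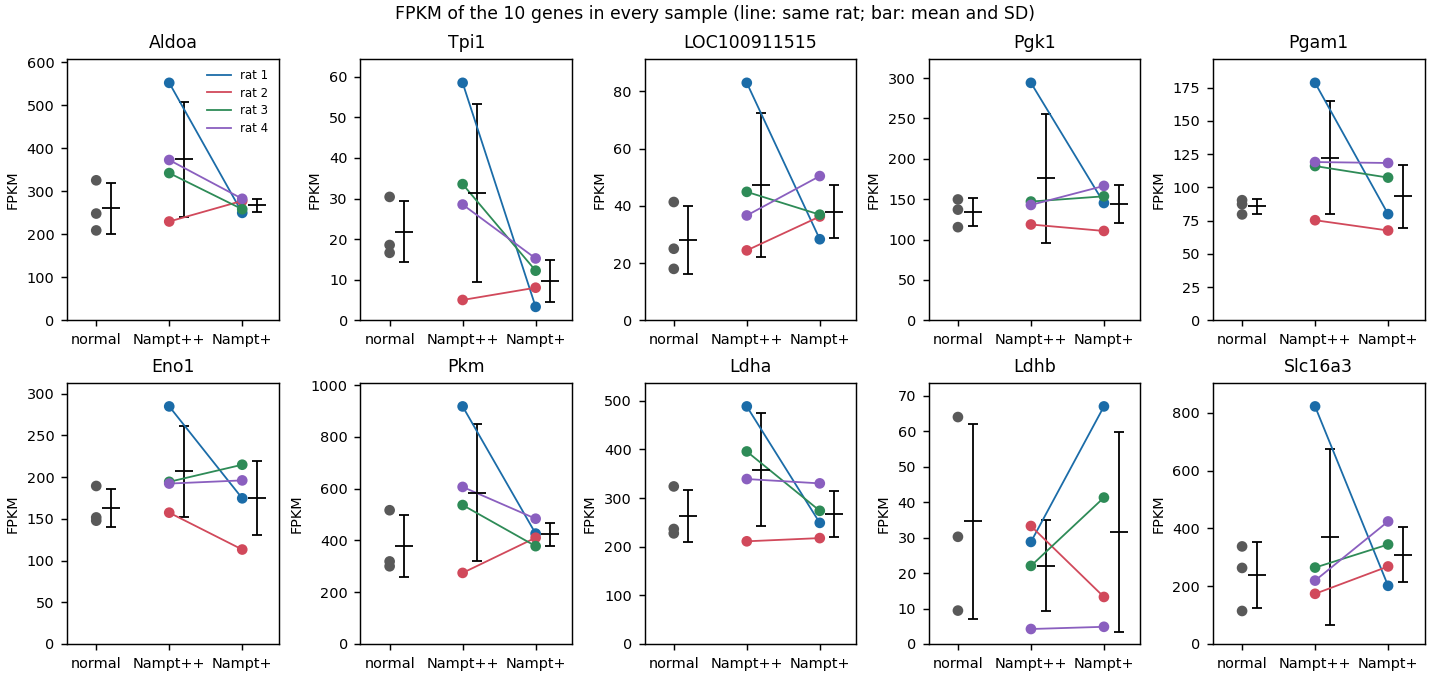
FPKM of each of the 10 genes on a linear axis from 0 in normal, Nampt++ and Nampt+ samples, 1 point per sample, with a line joining the samples of a rat and a bar for the mean and SD of a group. Rat 1 stood highest at Nampt++ status in 9 of the 10 genes, and the Tpi1 values of Nampt+ samples, from 3.33 to 15.2, lay below all 3 normal samples.

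The comparison of Nampt+ with Nampt++ samples followed the same rats over about a week. Tpi1 fell, to 0.309 of its Nampt++ mean FPKM, and it was the only one of the 10 genes called, that is, past both thresholds of the study, a mean FPKM that differed more than 2 times (a ratio above 2 or below 0.5) together with p below 0.05 before adjustment. Its copy LOC100911515 stood at 0.804 of the Nampt++ mean and was not called. Over all 11219 genes tested, 72 or 0.642% were called in the same way. With Benjamini-Hochberg adjustment of the edgeR quasi-likelihood p-values, 0 of the genes (0%) had an adjusted p under 0.05, DESeq2 gave 5 and limma 0, and at an unadjusted p under 0.05 edgeR gave 256 (2.28%), among them 1 of the 10 genes. The groups did not overlap in 46 genes (0.41%), and in none of the 10. All 10 passed the filter of the fit, which asked for a mean FPKM of 1 or more.

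Tpi1, listed as ENSRNOG00000015290 on the minus strand of chromosome 4 from 157328379 to 157331905, had FPKMs of 58.5, 5.02, 33.6 and 28.5 in the Nampt++ samples of rats 1 to 4. In the Nampt+ samples of the same rats it had 3.33, 8.05, 12.2 and 15.2. It was thus lower at Nampt+ status in 3 of the 4 rats, by far the most in rat 1, and higher in rat 2, whose Nampt++ sample lay among the Nampt+ samples. The means were 31.4 ± 21.9 and 9.71 ± 5.18 (SD, n = 4 each). In edgeR the log2 fold change was -1.55 with an SE of 0.65, past the unadjusted threshold but with an adjusted p = 0.9996, which was also the adjusted p of the other 9 genes and of the sum of the copies in this comparison. The exact permutation test of log2(FPKM + 1) gave a difference of -1.36 and p = 0.171, where the smallest p possible with 4 against 4 samples is 0.0286. With each rat as a block, edgeR gave -1.35 and the call was lost, while limma with the block gave -1.36 and kept it. The call was also lost when any one library other than the Nampt++ sample of rat 2 was left out (log2 fold changes from -1.74 to -1.09), and without the Nampt++ sample of rat 2 the log2 fold change was -1.89 and passed. Without the Nampt++ sample of rat 1, which had the highest neutrophil sum and the lowest haemoglobin share, it was -1.09 and did not pass.

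LOC100911515, described in the table with the same enzyme number as Tpi1, is listed as ENSRNOG00000050669 on the plus strand of chromosome 9 from 20213588 to 20217176. It had 83.0, 24.4, 44.9 and 36.6 FPKM in Nampt++ samples and 28.3, 36.3, 36.9 and 50.4 in Nampt+ samples of rats 1 to 4. The groups overlapped widely, with lower values at the later time in 2 rats and higher values in 2. The means were 47.2 ± 25.3 and 38.0 ± 9.15 (SD, n = 4 each), with a log2 fold change of -0.15 in edgeR (SE 0.38), less than its error (exact permutation test, p = 0.657). Without the Nampt++ sample of rat 1 it was 0.22. Read as a sum, the copies had 78.6 ± 46.7 FPKM at Nampt++ and 47.7 ± 14.1 at Nampt+ status (SD, n = 4 each). The sum was lower in 2 of the 4 rats. With the counts of both added before the fit, a choice made after seeing the data, the log2 fold change was -0.52 in edgeR (SE 0.42). The exact permutation test of the log2 summed FPKM gave p = 0.343, and the sign-flip permutation within rats gave p = 0.5. The single gene was called and the sum was not.

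The share of the reads of both copies that the table puts on LOC100911515 moved as well. In the normal samples it was 60.4%, 60.6% and 55.0%, and in the Nampt++ samples 61.6%, 84.6%, 60.2% and 59.2% for rats 1 to 4. In the Nampt+ samples it was 90.6%, 83.6%, 77.3% and 78.9%. All 4 Nampt+ samples lay above all 3 normal samples, and the Nampt++ sample of rat 2 lay inside the range of the Nampt+ samples. The means were 58.6 ± 3.17% (SD, n = 3) in normal, 66.4 ± 12.2% (SD, n = 4) in Nampt++ and 82.6 ± 5.96% (SD, n = 4) in Nampt+ samples. The difference between Nampt+ and normal samples was 23.9 percentage points (exact permutation test, p = 0.0286, the smallest that 4 against 3 samples allow). Between Nampt+ and Nampt++ samples it was 16.2 percentage points (exact permutation test, p = 0.114; sign-flip permutation within rats, p = 0.25). Without the Nampt++ sample of rat 2 it was 22.3. That sample is the one that overlapped the Nampt+ samples, so a test without it cannot count as evidence. The exact permutation p-values of the full groups are unadjusted. They stand among 39 exact tests of levels and shares over 3 comparisons, of which 1 reached p under 0.05. Whether reads that match both copies were divided between them or counted on each is not given in the sources used here. The share therefore describes the table and was not tested as a property of the cells.

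**Figure D2:**
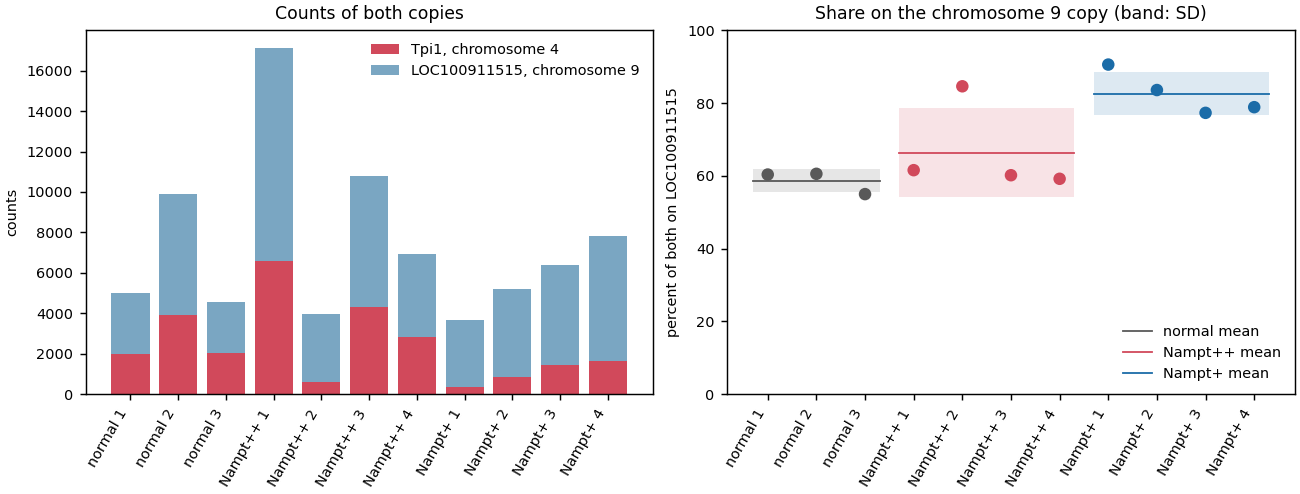
Left, stacked bars of the counts on Tpi1 and on LOC100911515 in each of the 11 samples. Right, the percent of both that lies on LOC100911515, with the group mean as a line and the SD as a band: the Nampt+ samples lie from 77.3% to 90.6% and the normal samples from 55.0% to 60.6%.

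Tpi1 and its copy stand at the ends of a stretch that the table lists on both chromosomes in mirrored order, noticed after the values were seen. On chromosome 4 it runs from Grcc10 through Atn1, LOC100911625 (gamma-enolase-like), LOC100911585 and LOC100911548 to Tpi1, and on chromosome 9 from LOC100911515 through Spsb2, Lrrc23, Eno2 and LOC100911672 to LOC100911713. In the GRCr8 table the order next to Tpi1 is Grcc10, Atn1, Eno2, Lrrc23 and Spsb2, then Tpi1 and Usp5. In 4 of the 6 pairs, single libraries had all counts on one copy and 0 on the other. LOC100911548 and Spsb2, for instance, took 0 and 1209 counts in the Nampt++ sample of rat 1 but 444 and 0 in that of rat 2. Spsb2 was at 0 in 7 of 11 samples, and Atn1 was at 0 in 2 samples in which its partner LOC100911672 had 1635 and 2567 counts. By contrast, the share of LOC100911713 in the reads of its pair with Grcc10 stayed between 45.2% and 47.2% in all 11 samples (SD 0.565). The Tpi1 pair was between these, with no sample at 0 and an SD of 12.8 over 11 samples. Some libraries had nearly the same counts on both copies of a pair that was all on a single copy in others. LOC100911585 and Lrrc23 had 375 and 375 in the Nampt++ sample of rat 2, and LOC100911548 and Spsb2 had 586 and 558 in the Nampt+ sample of rat 4. Whether shared reads were counted on both copies was not tested, so the sum of the Tpi1 copies may hold reads more than once.

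**Figure D3:**
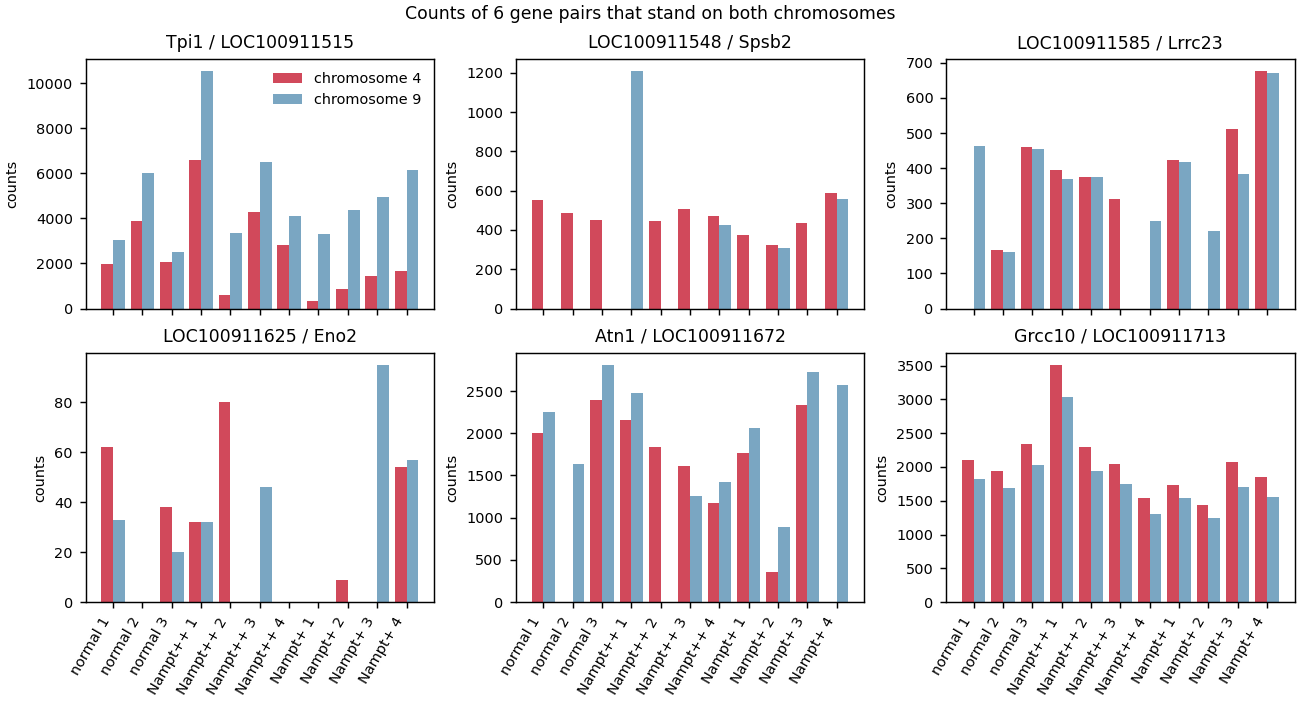
Counts of the chromosome 4 and the chromosome 9 member of 6 gene pairs in each sample, on linear axes from 0. Pairs such as LOC100911548 and Spsb2 have all counts on a single copy in some libraries and similar counts on both in others. Grcc10 and LOC100911713 keep nearly the same ratio.

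The enzymes on either side of the isomerase step had lower means at Nampt+ status, and none of them was called. Aldoa, the aldolase isoform of most tissues, had 374.3 ± 133.6 FPKM at Nampt++ and 267.2 ± 15.6 at Nampt+ status (SD, n = 4 each), with a log2 fold change of -0.29 (SE 0.32; exact permutation test, p = 0.143). Pgam1 was lower in all 4 rats, though in rat 4 only from 119.1 to 118.4 FPKM, with a log2 fold change of -0.29 (SE 0.24; exact permutation test, p = 0.257). The sign-flip permutation within rats gave p = 0.125 for Pgam1, the smallest it can give with 4 rats, and 0.25 or more for every other member. Pgk1 and Eno1 had -0.18 each (SE 0.28 and 0.19), and each was lower in 2 of the 4 rats. Pgk1, which makes the first ATP of the route, had 294.1, 118.7, 147.1 and 142.9 FPKM at Nampt++ and 145.3, 110.7, 153.6 and 166.5 at Nampt+ status. Only rat 1 showed a large difference. Without its Nampt++ sample the log2 fold change of Pgk1 was 0.14. Pkm, the most abundant of the 10, had 917.6, 274.4, 536.6 and 606.6 FPKM at Nampt++ and 426.3, 410.4, 377.8 and 483.8 at Nampt+ status. The later values lay close together inside the wide range of the earlier ones, and the log2 fold change was -0.27 (SE 0.35; exact permutation test, p = 0.429).

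At the lactate step the subunit genes differed in their pattern. Ldha, the subunit of muscle and of rapidly glycolytic cells, had 488.3, 211.0, 395.7 and 339.0 FPKM at Nampt++ and 248.9, 217.6, 273.7 and 330.1 at Nampt+ status, lower in 3 of 4 rats, with a log2 fold change of -0.30 (SE 0.26; exact permutation test, p = 0.257). Ldhb, the subunit of heart, had 28.8, 33.3, 22.0 and 4.21 at Nampt++ and 67.0, 13.3, 41.3 and 4.84 at Nampt+ status. It had the lowest values in rat 4 at both times, and its log2 fold change of 0.46 (SE 0.80) was smaller than its error. Ldha made up 93.6 ± 5.19% of the summed FPKM of both subunit genes at Nampt++, 89.6 ± 8.68% at Nampt+ status (SD, n = 4 each) and 88.6 ± 9.42% (SD, n = 3) in normal samples. The difference between the CIA groups was -3.96 percentage points (exact permutation test, p = 0.486). Slc16a3 had 822.7, 173.7, 264.5 and 219.4 FPKM at Nampt++ and 201.4, 268.4, 344.5 and 424.3 at Nampt+ status. It was higher at the later time in rats 2, 3 and 4 and lower in rat 1, so that the log2 fold change of -0.11 (SE 0.49) became 0.57 without the Nampt++ sample of rat 1 and 0.13 with each rat as a block.

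**Figure D4:**
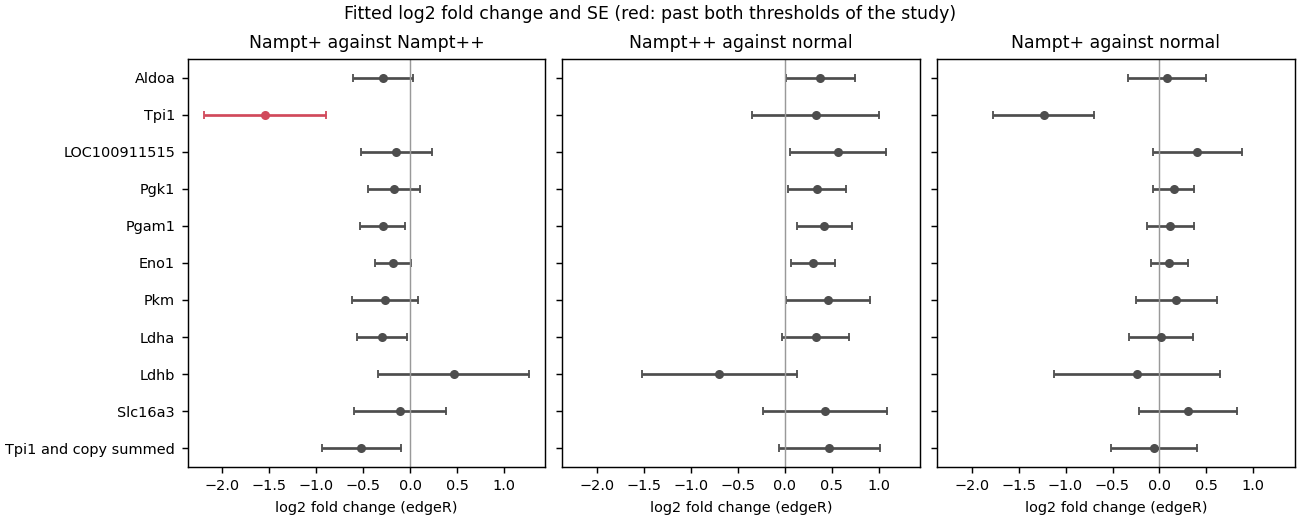
Log2 fold changes fitted by edgeR with their SE for the 10 genes and for Tpi1 summed with its copy, 1 panel per comparison, with a red point where both thresholds of the study were passed. Only Tpi1 in Nampt+ against Nampt++ samples is red, at -1.55, and the sum lies at -0.52 in that panel.

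Nampt++ samples were compared with normal samples to ask what early CIA carries above the healthy state. Mean FPKM was higher at Nampt++ status in 9 of the 10 genes, by 1.27 times for Eno1 to 1.68 times for LOC100911515, and lower for Ldhb at 0.639 times, but none of the 10 was called. Over all 11219 genes tested, 77 or 0.686% were called. At an unadjusted p under 0.05 edgeR gave 176 genes (1.57%) and none of the 10, and 0 (0%) had an adjusted p under 0.05, against 5 with DESeq2 and 0 with limma. The groups did not overlap in 123 genes (1.1%) and in none of the 10. Fitted by edgeR, the median log2 fold change was 0.36 over the 10 genes and 0.0018 over all genes tested. The 10 genes are not replicates of each other, and the Nampt++ sample of rat 1 was the highest of all 11 samples in 9 of them. Whether the medians differ beyond the spread among sets of genes was not tested. Tpi1 stood at 31.4 ± 21.9 (SD, n = 4) against 21.9 ± 7.46 FPKM (SD, n = 3), a log2 fold change of 0.33 (SE 0.68; exact permutation test, p = 0.914) that was -0.13 without the Nampt++ sample of rat 1. LOC100911515 had the highest fitted log2 fold change of the 10, 0.56 (SE 0.51; exact permutation test, p = 0.229), and was called, at 1.21, when normal sample 2 was left out. Pkm had 583.8 ± 264.5 (SD, n = 4) against 378.5 ± 120.0 (SD, n = 3) and Slc16a3 370.1 ± 304.0 against 238.5 ± 113.9. Rat 1 carried the upper end of both, and Slc16a3 without its Nampt++ sample was at -0.26 on the log2 scale.

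Nampt+ samples were compared with the same normal samples, so this comparison is not independent of the other ones. Tpi1 was lower in all 4 Nampt+ samples, at 3.33 to 15.2 FPKM, than in the 3 normal samples, at 18.6, 30.4 and 16.6, and it was the only one of the 10 genes whose groups did not overlap, where 50 of 11269 genes (0.444%) did not. Its mean was 0.444 times that of normal samples, with a log2 fold change of -1.23 (SE 0.54) that just missed the unadjusted threshold in edgeR, and the exact permutation test gave p = 0.0571. The call depended on the setting. Upper quartile scaling (-1.24), leaving out the haemoglobin genes (-1.24), DESeq2 (-1.22) and limma (-1.21) were among those that put it past both thresholds, and without normal sample 2 it was -0.66 and did not pass. LOC100911515 went the other way, with a log2 fold change of 0.40 (SE 0.47; exact permutation test, p = 0.229), and the sum of both copies was 47.7 ± 14.1 (SD, n = 4) against 49.99 ± 19.38 FPKM (SD, n = 3), at -0.06 in edgeR (exact permutation test, p = 0.857). The other members lay between -0.24 (Ldhb) and 0.31 (Slc16a3). Over all genes, 56 or 0.497% were called and none of the 10. At an unadjusted p under 0.05 edgeR gave 98 genes (0.87%) and none of the 10, and 0 (0%) had an adjusted p under 0.05, against 4 with DESeq2 and 0 with limma.

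Further rows of the table carry the enzyme number or description of a member, and 7 of 11 such rows passed the filter on FPKM. Between Nampt+ and Nampt++ samples 2 of the 7 were called, both lower, where 0.642% of all genes tested were called. LOC100364062, described as M2 pyruvate kinase-like, had 36.0, 15.5, 47.7 and 50.2 FPKM at Nampt++ and 18.6, 15.8, 18.5 and 20.7 at Nampt+ status, lower at the later time in rats 1, 3 and 4 and nearly level in rat 2. Its log2 fold change was -0.86 (SE 0.32, adjusted p = 0.9996 in edgeR). LOC685431, an enolase-like gene on chromosome X, fell from 4.93 ± 2.00 to 2.28 ± 0.84 FPKM (SD, n = 4 each), a log2 fold change of -1.06 (SE 0.30, adjusted p = 0.9996 in edgeR), while Eno1 itself, at 183.3 FPKM over all samples, was at -0.18. Each copy took a small part of the reads of its pair, a median of 2.90% for LOC100364062 beside Pkm and 1.09% for LOC685431 beside Eno1. AABR07044711, a second pyruvate kinase row, took a median of 13.8% beside Pkm, and its Nampt++ samples, from 88.1 to 126.2 FPKM, lay above the normal samples, from 62.0 to 76.3. The Nampt++ samples of RGD1563294, another enolase-like row, from 3.84 to 5.73 FPKM, also lay above the normal samples, from 2.82 to 3.69. Neither of these rows was called, and groups without overlap were found in 1.1% of all genes in that comparison. RGD1562690, lactate dehydrogenase A-like, took a median of 2.85% beside Ldha and was at -0.21 between the CIA groups. The symbol Gapdh was not found, and LOC108351137, described as glyceraldehyde-3-phosphate dehydrogenase and named after its values were seen, stands on 2 rows with mean FPKMs of 580.0 and 207.2. The lower of these rows was at 198.2 to 265.0 FPKM in Nampt+ samples, above the 117.4 to 194.5 of normal samples, where 0.444% of all genes did not overlap, but it was not called (log2 fold change 0.60, SE 0.48 in edgeR), and the other row overlapped. All of these genes can share reads with their relatives, and their values are uncertain for that reason.

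In the rest of the pathway no tested gene was called in any comparison. Of 11 tested genes of early glycolysis, from glucose uptake to the fructose phosphate kinases, 7 had lower and 4 higher fitted values in Nampt+ than in Nampt++ samples, with a median log2 fold change of -0.06. The glucose transporter gene Slc2a1 was at -0.76 and the hexokinase gene Hk2 at -0.45, neither past the threshold. Of 7 tested isoforms and transport genes, 4 were higher and 3 lower, with Bsg, the chaperone that brings MCT4 to the membrane, at -0.14 and Slc16a1, coding for MCT1, at -0.21. Of 9 tested genes of pyruvate fate, 5 were higher and 4 lower, from -0.31 (Dlat) to 0.34 (Pdha1). That list pools the mitochondrial pyruvate carrier, pyruvate dehydrogenase and its kinases, so the count has no single direction of flux. Hif1a, coding for the oxygen-regulated subunit of HIF-1, had 53.1 ± 22.1 FPKM at Nampt++ and 52.6 ± 23.7 at Nampt+ status (SD, n = 4 each), with a log2 fold change of 0.07. No gene of these lists that passed the filter was free of overlap between groups in any comparison. Below the filter, Gapdhs had 0.312 to 0.632 FPKM in Nampt+ samples and 0.668 to 0.727 in normal samples, which do not overlap. These values are low and were not fitted, and the share of genes below the filter without overlap was not counted. Nothing is read from that single row.

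On the FPKM scale, 6 of the enzymes varied together from sample to sample and Ldhb did not vary with them, a contrast that was weaker outside haemoglobin. Over all 11 samples, of which 8 come from 4 rats, Pearson's r of log2(FPKM + 1) among Aldoa, Pgk1, Pgam1, Eno1, Pkm and Ldha had a median of 0.82 over 15 pairs, from 0.55 to 0.95. With counts scaled to the reads outside haemoglobin the median was 0.68, from 0.19 to 0.90. With the same 6, r of log2(FPKM + 1) was from 0.51 (Eno1) to 0.80 (Ldha) for Tpi1 and from 0.58 (Eno1) to 0.94 (Ldha) for the sum of the copies. For Ldhb it was from -0.26 (Pgam1) to -0.02 (Pgk1). Scaled to the reads outside haemoglobin, r was 0.19 (Eno1) to 0.68 (Ldha) for Tpi1 and 0.33 (Eno1) to 0.94 (Ldha) for the sum. For Ldhb it was then -0.17 (Pgam1) to 0.22 (Pgk1), where the lowest pair among the 6 (Aldoa and Eno1) had 0.19. With the haemoglobin share of the counts, r ran from -0.89 for Eno1 to -0.33 for Slc16a3 over the 9 members other than Ldhb, with -0.60 for Tpi1, and it was 0.40 for Ldhb. With counts scaled to the reads outside haemoglobin it was -0.49 for Eno1, -0.55 for Pgam1, -0.46 for Tpi1, 0.03 for Aldoa, -0.04 for Slc16a3 and 0.53 for Ldhb. LOC100911515 had r = 0.93 with Slc16a3 but 0.60 with Tpi1, and Ldhb had r = -0.27 with Tpi1. Together the 10 genes took 0.729% of counts in rat 1 at Nampt++ status and 0.246% in rat 2 at the same status. In those samples the neutrophil marker sum was 40231 and 2925 FPKM and the haemoglobin share 6.84% and 37.3%, and their part in the member levels was not tested.

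**Figure D5:**
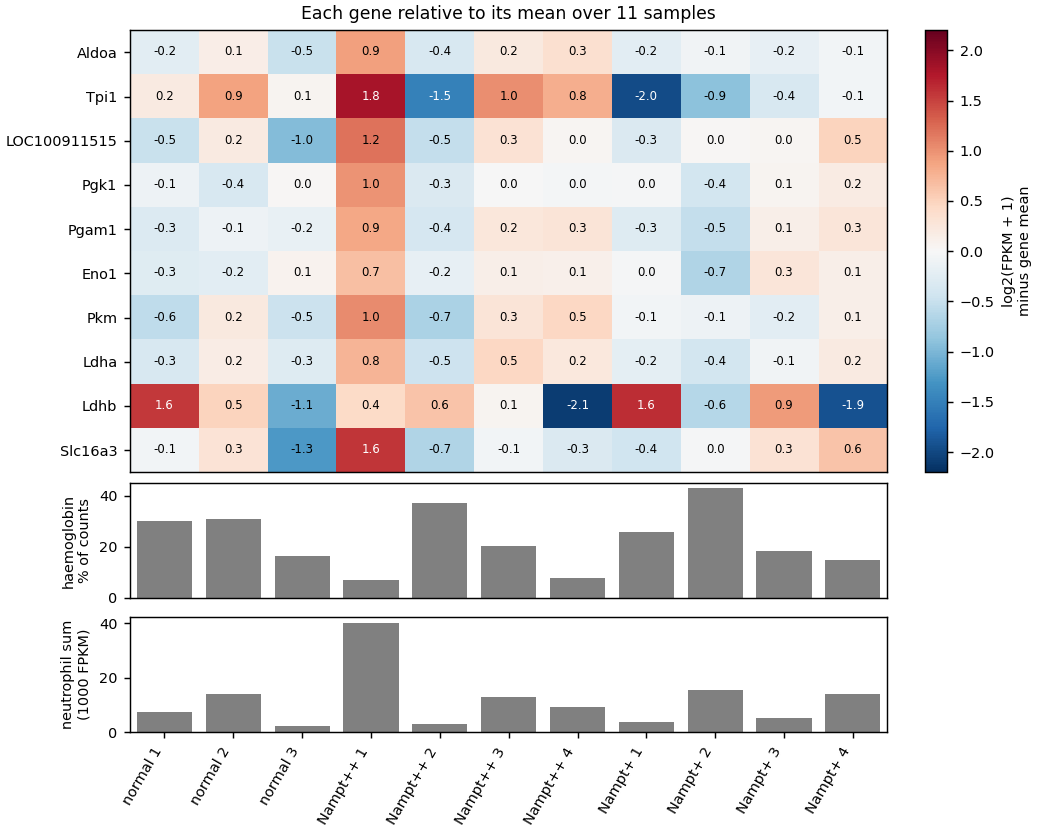
Top, log2(FPKM + 1) of each gene in each sample minus the mean of that gene over 11 samples. Below, the haemoglobin share of the counts in percent and the summed FPKM of 11 neutrophil markers, scaled as its axis states: the Nampt++ sample of rat 1 has the highest values of 9 genes, the highest neutrophil sum of 40231 and the lowest haemoglobin share of 6.84%.

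The genes whose levels over the 11 samples were most like those of a member, searched among 4930 genes whose mean FPKM reached 10, were as follows. For Tpi1 they were Prr29, Cyld and Midn (r from 0.88 to 0.90), while for LOC100911515 they were Tnfrsf1a, a receptor of tumour necrosis factor, Ralb and Lpcat2 (r of 0.98 each). For the sum of both they were Emc2, Il18rap and Tmem43, with r of 0.98 each. Slc16a3 was most like Lilrb3a, Csf3r, the receptor of the neutrophil growth factor G-CSF, and Tnfrsf1a (r from 0.95 to 0.96). Among the genes most like Aldoa were St3gal4 (r of 0.97) and the kinase gene Fgr (0.96), and among those most like Pkm were Ptpn12 and Slc11a1 (r of 0.96 each). Pgk1 was most like Nubp2, Degs1 and Slc25a11 (0.96 each), Pgam1 like Traf7, Cndp2 and Hsd17b11 (0.97 to 0.98), Eno1 like AABR07073038, Spg21 and Glmp (0.96 to 0.98) and Ldha like Pde4b, Hcls1 and Emc2 (0.95 to 0.98). Ldhb had no gene above 0.76, with AABR07071891, RT1-CE7 and Ubb as the nearest. These correlations rest on 11 samples from 7 rats and share haemoglobin share and depth.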

How the data were processed

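WBC RNA of 11 samples was measured by poly(A) RNA-seq, 4 Nampt++ and 4 Nampt+ samples from the same 4 CIA rats and 3 from normal rats. Per the submitters' processing notes, cutadapt 1.9, HISAT2 2.0.4 and StringTie 1.3.4 were used. The genome build and the treatment of reads shared by several genes are not given in the sources used here. The authors deposited raw read counts per gene, used for the fits, and FPKM, scaled by gene length and sample total, used for levels and ratios. An FPKM of 0.0001 or less was read as 0. Separate rats are the replicates within a group and depth is given as total counts.

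The test across all genes was edgeR 4.0.16's quasi-likelihood test with TMM scaling (R 4.3.3), 1 pair of groups at a time, on all genes that reached a mean FPKM of 1. The SE beside an edgeR log2 fold change is its absolute value divided by the square root of the F statistic of the test. The ratio and p thresholds are those of the study, and p-values were adjusted by Benjamini-Hochberg over all genes tested. Single genes, the sum of the Tpi1 copies and shares were compared by two-sided exact permutation. That test ignores the pairing of rats, so between the CIA groups the signs of the differences within rats were also flipped. Alternatives were other scalings and filters, haemoglobin genes left out, a pseudocount of 0.1 in place of 1, limma 3.58.1, DESeq2 1.42.0, all groups in one fit, the rat as a block, and each sample left out. Fitting the copies as a sum was added after seeing the data, and that fit also merged Pkm, Ldha and Eno1 with their further copies. Genes named are the members, list genes called or without overlap, Hif1a and Bsg, further copies, and the 3 genes most like each member by Pearson's r (1 of these genes is not reported here), while Slc2a1, Hk2, Slc16a1, Dlat, Pdha1 and the genes of the mirrored stretch were named after their values were seen.

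By their labels, equal numbers at Nampt++ and Nampt+ status mark the same rat. Over genes, deviations of such a pair from its group means correlated at -0.27, -0.24, 0.23 and 0.09 for rats 1 to 4. Normal and CIA rats share only numbers. The members and lists were chosen with earlier results of these data known. Marker lists covered erythroid cells (10 of 16 symbols found), neutrophils (11 of 11), monocytes (7 of 8), T cells (7 of 7), B cells (4 of 5), NK cells (6 of 6), platelets (6 of 6) and retina (6 of 6). Their medians of summed FPKM at Nampt++, Nampt+ and normal status were 192924, 305394 and 414201 for erythroid cells, 11081, 9533 and 7241 for neutrophils, 10085, 7178 and 5678 for monocytes, 793.5, 930.0 and 965.2 for T cells, 209.3, 242.6 and 264.7 for B cells, 167.6, 167.2 and 150.6 for NK cells and 7073, 5334 and 6096 for platelets.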

Additional observations from a re-analysis of the deposited data

Results flagged for a closer look

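Groups of 4 samples were searched for a sample whose gap to the nearest other sample took up more of the group's range than Dixon's 95% limit, which chance alone exceeds in about 1 of 20 groups. Of 26 groups, 3 were marked. Pgk1 in the Nampt++ sample of rat 1 had 294.1 FPKM, where the other Nampt++ samples had 118.7 to 147.1. Slc16a3 in the same sample had 822.7 FPKM, where the others had 173.7 to 264.5. The share of LOC100911515 in the reads of both Tpi1 copies was 84.6% in the Nampt++ sample of rat 2, where the others had 59.2% to 61.6%. The sample of rat 1 had the lowest haemoglobin share of all, 6.84%, and the sample of rat 2 had 37.3%, and the part of these shares in the values was not tested.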

How the results depend on the processing

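Without the filter on FPKM, counts of called genes were 295 for Nampt+ against Nampt++, 306 for Nampt++ against normal and 261 for Nampt+ against normal samples, and with a mean FPKM of at least 10 they were 19, 25 and 14. For Nampt++ against normal samples DESeq2 gave 121 and limma 145. With the rat as a replicate block, limma called 123 genes between the CIA groups, and edgeR called 0 of the 10 members there instead of 1. It also called no member in the fit of summed copies, which merged Pkm, Ldha and Eno1 with their further copies as well. The block also turned the fitted change of Slc16a3 to 0.13, and leaving out haemoglobin genes turned its level difference to 0.12. Normal and CIA rats share only numbers, and a block on these gave 46 called genes for Nampt++ and 60 for Nampt+ against normal samples, with Ldhb turned to 0.092 and 0.43. For Nampt+ against normal samples 1 member, Tpi1, was called in place of 0 with upper quartile scaling, without haemoglobin genes, without a filter, with the stricter filter, with DESeq2, with limma and with the block by number. In other settings that left out no sample, 368 values of single genes kept their direction and their side of the threshold. Of the rest, 4 changed direction, 7 came to pass the threshold and 1 ceased to pass it. The 7 and the 1 were fits of Tpi1.

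Leaving out 1 sample at a time gave 58 to 165 called genes between the CIA groups, 53 to 462 for Nampt++ against normal (462 without normal sample 2) and 49 to 136 for Nampt+ against normal samples, and 0 to 1 called member in each. Fitted log2 fold changes that crossed 0 between the CIA groups ran from -0.43 to 0.22 for LOC100911515, from -0.34 to 0.14 for Pgk1, from -0.56 to 0.0027 for Pkm, from -0.14 to 0.83 for Ldhb and from -0.36 to 0.57 for Slc16a3. Against normal samples at Nampt++ status they ran from -0.13 to 0.90 for Tpi1 and from -0.26 to 1.00 for Slc16a3. At Nampt+ status they ran from -0.27 to 0.51 for Aldoa, from -0.035 to 0.36 for Pgam1, from -0.11 to 0.74 for Pkm, from -0.20 to 0.44 for Ldha, from -0.85 to 0.43 for Ldhb and from -0.10 to 0.88 for Slc16a3. Differences in log2(FPKM + 1) that crossed 0 between the CIA groups ran from -0.46 to 0.11 for LOC100911515, from -0.36 to 0.07 for Pgk1, from -0.37 to 0.88 for Ldhb and from -0.28 to 0.46 for Slc16a3. Against normal samples at Nampt++ status they ran from -0.27 to 0.83 for Tpi1, from -1.27 to 0.053 for Ldhb and from -0.0047 to 0.80 for Slc16a3. At Nampt+ status they ran from -0.091 to 0.23 for Aldoa, from -0.0082 to 0.21 for Pgk1, from -0.039 to 0.23 for Pgam1, from -0.044 to 0.26 for Eno1, from -0.076 to 0.19 for Ldha, from -1.03 to 0.32 for Ldhb, from -0.0005 to 0.78 for Slc16a3 and from -0.27 to 0.24 for the sum of the Tpi1 copies. The share of LOC100911515 differed by 13.5 to 22.3 percentage points between the CIA groups. The share of Ldha differed by -0.24 to 8.84 for Nampt++ and by -4.19 to 4.88 percentage points for Nampt+ against normal samples. The cause of these shifts was not tested. Whether depth limited what could be detected was not tested.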

Other observations

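The list of 11 symbols of pyruvate fate had 9 genes tested and the 4 regulators (Hif1a, Egln1, Egln3 and Myc) were all tested, and none was called. Myc, a transcription factor that drives glycolytic genes in many cells, was at 0.59 on the log2 scale between Nampt+ and Nampt++ samples, and Egln1, coding for an oxygen sensor that marks HIF-1 for destruction, at -0.31. Ldhc, the lactate dehydrogenase gene of testis, had 1.96 ± 1.20 FPKM in Nampt+ and 1.03 ± 0.27 in Nampt++ samples (SD, n = 4 each), with a log2 fold change of 1.01 that missed the unadjusted threshold. The level of Nampt itself, by whose PCR the authors set the status, had r = 0.93 with the sum of the Tpi1 copies, 0.89 with Ldha, 0.85 with Tpi1 and -0.26 with Ldhb over the 11 samples, 8 of which come from 4 rats. It had 0.84 with Pgam1, 0.82 with LOC100911515, 0.77 with Aldoa, Pkm and Slc16a3, 0.58 with Eno1 and 0.56 with Pgk1. With counts scaled to the reads outside haemoglobin, r was 0.83 for the sum, 0.76 for Ldha, 0.82 for Tpi1 and -0.34 for Ldhb. For the other members it then ran from 0.29 (Pgk1) to 0.83 (Pgam1).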
